A study of Oryctolagus cuniculus with 9 samples.

Results

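The genes described here carry the electrical signal of the muscle membrane to the release, storage and re-uptake of calcium in the diaphragm of New Zealand white rabbits. They were chosen by name as 10 genes (CACNA1S, RYR1, JPH1, JPH2, TRDN, CASQ1, CASQ2, ATP2A1, ATP2A2 and PVALB) out of the 29076 genes of the expression table, and all 10 were found and passed the filter on low values. Diaphragm RNA was sequenced in 3 groups of 3 libraries. The MV_PEEP group was mechanically ventilated with a positive end-expiratory pressure (PEEP, the airway pressure kept at the end of a breath), which the labels give as 8 without a unit or a duration. The MV group was ventilated in volume control mode for 48 h with a PEEP of 0 cmH2O, and the CON group was anaesthetized and breathed spontaneously. The labels name no genetic change or drug under test. Nothing states in words that each library came from a separate rabbit, so the p-values measure only the spread between these libraries. Levels are given in FPKM, fragment counts divided by transcript length and by sequencing depth.

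In a muscle fibre the action potential runs into the transverse tubules, where it meets the terminal cisternae of the sarcoplasmic reticulum at junctions called triads. A voltage sensor in the tubule membrane opens the calcium release channel of the reticulum by direct contact, calcium that was held in the store by calsequestrin leaves, and the myofilaments contract. Relaxation follows when the SERCA pumps return calcium to the store, and in fast fibres the soluble buffer parvalbumin binds calcium for a short time. Fast and slow fibres differ in the forms of calsequestrin and of SERCA that they hold, though slow fibres also hold CASQ1. The diaphragm holds both fibre types.

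Total counts were 33024311 to 41077310 in the MV_PEEP libraries, 24670232 to 43697018 in the MV libraries and 21646702 to 31791693 in the CON libraries. MV_PEEP replicate 3 stood apart, with an FABP4 level of 7369 FPKM against 186 to 706 FPKM in the other 8 libraries and the lowest ACTA1 level of all 9 libraries (10741 FPKM). Its summed level of 7 fibroblast markers was 4178 FPKM, against 142 to 1614 FPKM in the others. The markers that define skeletal muscle were all measured, and their summed level over 8 genes was 21581 to 34527 FPKM in the MV_PEEP group and 29270 to 37859 FPKM in the MV group, against 50219 to 65906 FPKM in the CON group. Of these 8 markers 7 had a fitted value below the CON group in each ventilated group. In such bulk RNA, fewer fibres and less RNA per fibre cannot be told apart. Of the cardiac markers NPPA and NPPB were listed at 0 in every library and MYBPC3 reached at most 0.121 FPKM, while MYH6 had 58.5 to 144 FPKM in the MV_PEEP group and 28.3 to 130 FPKM in the MV group against 124 to 227 FPKM in the CON group, and TNNT2 had 5.91 to 17.3, 10.1 to 32.5 and 3.54 to 20.1 FPKM in the MV_PEEP, MV and CON groups. MYH6 is nearly identical in sequence to the slow myosin gene MYH7, which was not matched to a row, so its reads may be shared.

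The 10 genes spanned a wide range of levels per transcript length. In the CON group the order of the mean levels was CASQ1, ATP2A1, PVALB, ATP2A2, RYR1, CASQ2, CACNA1S, TRDN, JPH1 and JPH2. In that order CASQ1, ATP2A1 and PVALB overlapped with their neighbours in range, PVALB stood above ATP2A2 in every library, the genes from ATP2A2 to CACNA1S overlapped with their neighbours, TRDN lay just below CACNA1S without overlap, and JPH1 lay below TRDN in every library. In both ventilated groups ATP2A1 came first and CASQ1 second, with overlapping ranges, and PVALB stood at rank 6 in the MV_PEEP group and rank 7 in the MV group, against rank 3 in the CON group. The libraries of a group differed from each other over many of the genes at once. MV_PEEP replicate 2 was the highest of its group for 9 of the 10 genes and MV_PEEP replicate 3 the lowest for 8, and MV replicate 2 was the highest of its group for 7.

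**Figure D1:**
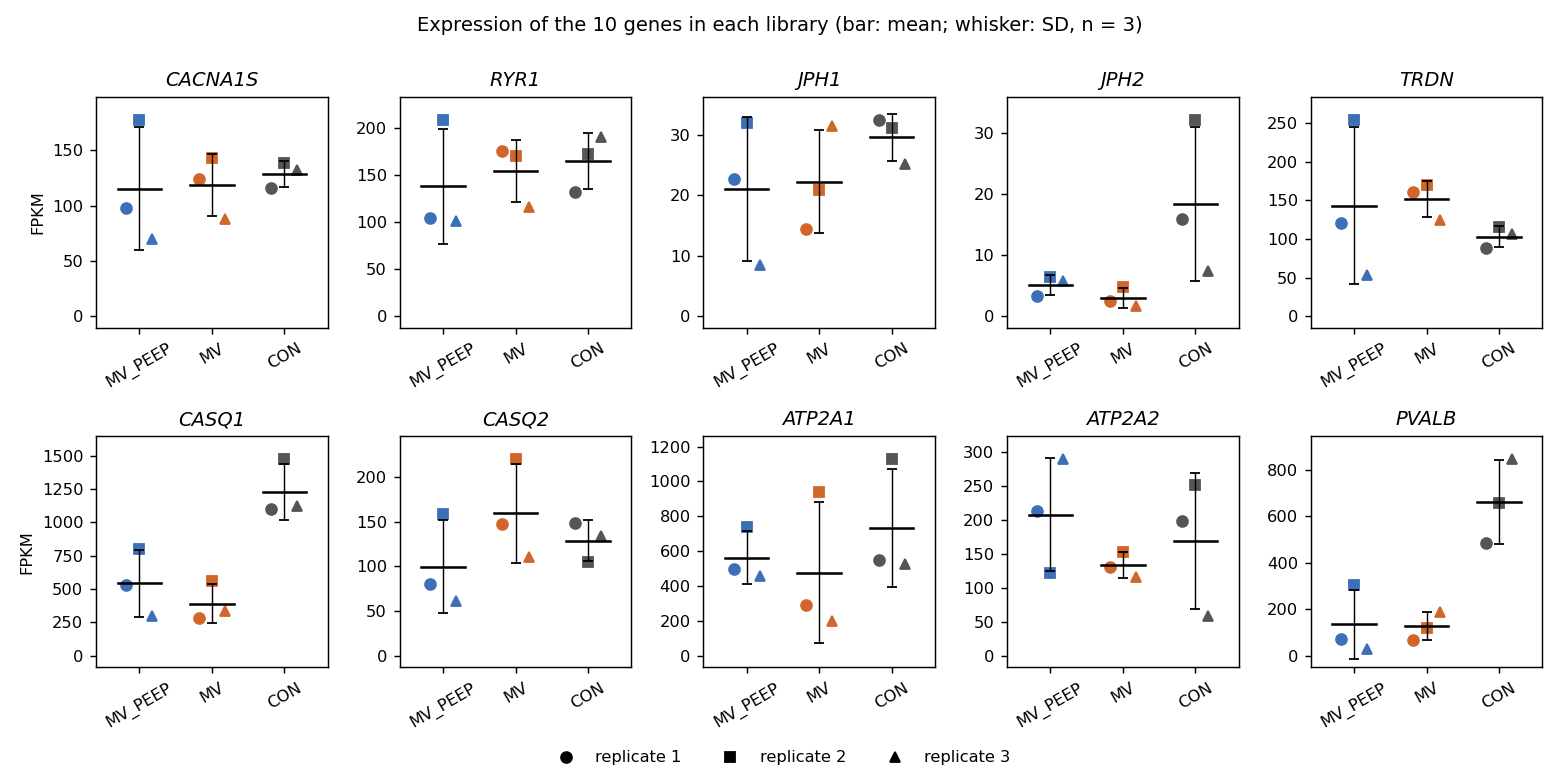
FPKM of each gene (vertical axis, linear, one scale per gene) in the MV_PEEP, MV and CON groups, with a point per library shaped by replicate number, a bar at the mean and a whisker for the SD over 3 libraries. For JPH2, CASQ1 and PVALB the libraries of both ventilated groups lie below all 3 CON libraries.

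The 3 comparisons were fitted with edgeR's quasi-likelihood test over 12981 genes, with p-values adjusted by Benjamini and Hochberg. None of the 10 genes passed an adjusted p of 0.05 in any of them, and neither did any other gene, so 0.0% of all genes tested were called in each. At an unadjusted p under 0.05, 3 of the 10 genes were lower and 0 higher in MV than in CON libraries, against 3.19% of all genes tested lower and 3.77% higher. These were JPH2, CASQ1 and PVALB, which were also lower in MV_PEEP than in CON libraries, where 3.02% of all genes tested were lower and 3.23% higher. No gene of the 10 met that limit between the MV_PEEP group and the MV group, where 1.26% of all genes tested were lower and 2.26% higher. The 2 comparisons with the CON group share the same 3 CON libraries. In FPKM, these 3 genes had no overlap between the groups and were lower in the MV group (4.91% of all genes tested had no overlap and were lower) and in the MV_PEEP group (2.58%). The median log2 fold change over the 10 genes was -0.43 in the MV group and -0.66 in the MV_PEEP group against the CON group, beside 0.02 and 0.06 over all genes tested. Without 1 library it lay between -0.70 (CON replicate 3) and -0.28 (MV replicate 1, with -0.29 without CON replicate 1) in the MV group, and between -1.08 (MV_PEEP replicate 2) and -0.29 (MV_PEEP replicate 3) in the MV_PEEP group. Without MV_PEEP replicate 2, 8 of the 10 genes were lower in every MV_PEEP library than in every CON library, as were 4.68% of all genes tested. That library was the highest of its group for 9 of the 10 genes, and this count was chosen after seeing the data. The count was 3 without any 1 of the other libraries compared.

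**Figure D2:**
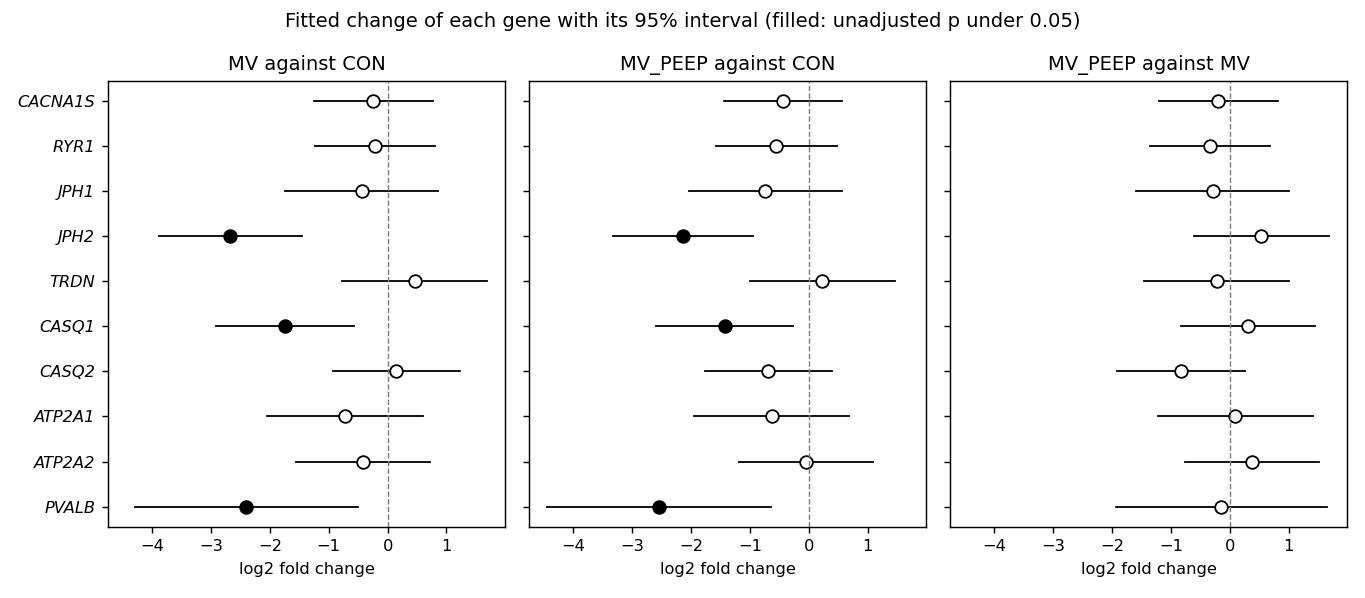
Fitted log2 fold change (horizontal axis) of each gene in the 3 comparisons, with its 95% interval as a line and a filled point where the unadjusted p is under 0.05. The filled points are JPH2, CASQ1 and PVALB in the comparisons with the CON group, and every interval of the comparison between the ventilated groups spans 0.

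The voltage sensor and the release channel were not separated from the spread between libraries by the fit, in any comparison. CACNA1S (chr16:70324546-70381515 on the plus strand of OryCun 2.0), the pore subunit of the L-type channel that senses the voltage of the tubule membrane, had 98.2, 177 and 70.1 FPKM in the MV_PEEP libraries, 124, 143 and 88.0 FPKM in the MV libraries, and 116, 138 and 133 FPKM in the CON libraries. The range of each ventilated group spanned that of the CON group. The log2 fold change of CACNA1S against the CON group was -0.24 in the MV group (95% interval -1.25 to 0.76) and -0.44 in the MV_PEEP group (-1.44 to 0.57). In the MV_PEEP group it was -0.91 without replicate 2 (unadjusted p 0.091) and -0.061 without replicate 3.

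RYR1 (chr5:2455787-2564979, plus strand), the calcium release channel that this sensor opens, had 105, 208 and 101 FPKM in the MV_PEEP libraries, 176, 170.5 and 116 FPKM in the MV libraries, and 132, 172 and 190 FPKM in the CON libraries. MV_PEEP replicate 2 was the highest of all 9 libraries and the other libraries of its group the lowest. The log2 fold change of RYR1 was -0.21 in the MV group (-1.23 to 0.81) and -0.55 in the MV_PEEP group (-1.57 to 0.48) against the CON group, and in the MV_PEEP group it was -1.02 without replicate 2 (unadjusted p 0.076) and -0.23 without replicate 3. The ratio of RYR1 to CACNA1S in FPKM was 1.23 ± 0.193 in the MV_PEEP group, 1.31 ± 0.113 in the MV group, against 1.27 ± 0.150 in the CON group (SD, n = 3), and the exact 2-sided permutation p lay between 0.6 and 0.8 in the 3 comparisons (adjusted p between 0.818 and 0.857 over 15 such tests). With 3 libraries a group the smallest p of this test is 0.1.

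Of the genes for proteins that build the triad, JPH2 was lower in both ventilated groups at an unadjusted p under 0.05 in edgeR, but not at an adjusted p of 0.05. JPH1 and TRDN met neither limit. Junctophilins span the gap between the tubule membrane and the reticulum and hold both together, with JPH1 the main form of skeletal muscle and JPH2 the main form of the heart, also present in skeletal muscle. JPH2 (positions 3430614 to 3458106 of an unplaced scaffold, minus strand) had 3.3, 6.3 and 5.7 FPKM in the MV_PEEP libraries, 2.6, 4.9 and 1.7 FPKM in the MV libraries, and 15.8, 32.0 and 7.3 FPKM in the CON libraries. All 6 ventilated libraries lay below the lowest CON library, and the CON libraries themselves differed 4.37-fold. The fitted level of JPH2 was 6.38-fold lower in the MV group (log2 fold change -2.67, SE 0.545, unadjusted p 0.00061, adjusted p 0.287 in edgeR) and 4.40-fold lower in the MV_PEEP group (-2.14, SE 0.534, unadjusted p 0.0025, adjusted p 0.543). The adjusted p of 0.287 was the smallest that any gene reached between the MV group and the CON group. JPH2 had the fewest reads of the 10 genes, with 80 to 1027 counts a library. Markers of smooth muscle and pericytes, cells in which JPH2 is also known, had fitted values below the CON group in both ventilated groups. At an unadjusted p under 0.05 in edgeR, 3 of 6 were lower in the MV_PEEP group and 5 of 6 in the MV group, against 3.02% and 3.19% of all genes tested. The summed level of these markers was 73.7, 125 and 333 FPKM in the MV_PEEP libraries and 161, 98.3 and 45.0 FPKM in the MV libraries. In the CON libraries it was 109, 223 and 334 FPKM. CON replicate 3, with the highest of all these sums, had the lowest JPH2 level of its group. The part of these cells in the JPH2 result was not tested.

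The call on JPH2 depended on the tool. Against the CON group, DESeq2 gave JPH2 an adjusted p of 0.000734 for the MV group, where it called 1.2% of the genes it tested, and of 0.026 for the MV_PEEP group, where it called 0.766%. It called 0.117% between the ventilated groups, with none of the 10 genes among them. Without any single library, the log2 fold change of JPH2 stayed between -3.14 and -2.24 in the MV group and between -2.49 and -1.68 in the MV_PEEP group.

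JPH1 (chr3:90056657-90150615, minus strand) had 22.6, 32.0 and 8.5 FPKM in the MV_PEEP libraries, 14.5, 20.9 and 31.4 FPKM in the MV libraries, and 32.4, 31.2 and 25.1 FPKM in the CON libraries. Each ventilated group had 1 library within the CON range. Its log2 fold change was -0.44 in the MV group (-1.74 to 0.85) and -0.74 in the MV_PEEP group (-2.04 to 0.56) against the CON group. The share of JPH1 in the sum of JPH1 and JPH2 was 87.4, 83.5 and 59.7% in the MV_PEEP libraries, 85.0, 81.1 and 95.0% in the MV libraries, and 67.2, 49.3 and 77.4% in the CON libraries. Every MV library was above every CON library (exact permutation p 0.1, adjusted p 0.375), and the MV_PEEP libraries overlapped with both other groups.

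TRDN (chr12:112386146-112810926, minus strand) encodes triadin, which anchors calsequestrin to the release channel. It had 121, 254 and 54.1 FPKM in the MV_PEEP libraries, 161, 169 and 125 FPKM in the MV libraries, and 88.0, 115 and 106 FPKM in the CON libraries. TRDN was the only one of the 10 genes that was higher in every MV library than in every CON library, a pattern that 10.3% of all genes tested showed. The difference was within the error of the fit (log2 fold change 0.46, 95% interval -0.78 to 1.69). In the MV_PEEP group, where 14.2% of all genes tested were higher without overlap, the TRDN libraries lay on both sides of the CON range, and the log2 fold change was 0.23 (-0.999 to 1.46) with all libraries and -0.46 without MV_PEEP replicate 2. TRDN overlaps an unnamed gene on the opposite strand over 56697 bases, and whether the counting used the strand is not given in the sources used here, so part of its reads may belong to that gene.

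The 2 calsequestrins, the proteins that bind calcium inside the store, differed from each other in their pattern. CASQ1, the form of fast fibres that slow fibres also hold, was lower in both ventilated groups. CASQ1 (chr13:32901407-32910158, minus strand) had 531, 799 and 297 FPKM in the MV_PEEP libraries, 283, 557 and 333 FPKM in the MV libraries, and 1098, 1472 and 1119 FPKM in the CON libraries. Every ventilated library was below every CON library. The fitted level of CASQ1 was 3.33-fold lower in the MV group (log2 fold change -1.74, SE 0.528, unadjusted p 0.008, adjusted p 0.545 in edgeR) and 2.69-fold lower in the MV_PEEP group (-1.43, SE 0.523, unadjusted p 0.021, adjusted p 0.719). DESeq2 gave adjusted p-values of 0.0326 and 0.175. The ACTA1 transcript of the contractile apparatus was also lower in every ventilated library, with 10741 to 17977 FPKM in the MV_PEEP group and 12138 to 19715 FPKM in the MV group against 29785 to 36770 FPKM in the CON group, and its part in the CASQ1 result was not tested.

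CASQ2 (chr13:48463790-48534007, plus strand), the form of slow fibres and of the heart, had 80.0, 159 and 61.0 FPKM in the MV_PEEP libraries, 148, 220 and 111 FPKM in the MV libraries, and 149, 105 and 134 FPKM in the CON libraries. The MV libraries spread around the CON libraries, and MV_PEEP replicates 1 and 3 lay below all others. The log2 fold change of CASQ2 was 0.15 in the MV group (-0.93 to 1.23) and -0.68 in the MV_PEEP group (-1.77 to 0.40) against the CON group, and -0.83 between the MV_PEEP group and the MV group (-1.92 to 0.26). Without MV_PEEP replicate 2 the log2 fold change of CASQ2 in the MV_PEEP group was -1.21 against the CON group (unadjusted p 0.042) and -1.36 against the MV group (unadjusted p 0.027). These were the lowest values without 1 library, and the highest were -0.31 against the CON group and -0.46 against the MV group.

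The share of CASQ1 in the sum of both calsequestrins separated all 3 groups. It was 86.9, 83.4 and 83.0% in the MV_PEEP libraries, 65.7, 71.7 and 75.1% in the MV libraries, and 88.1, 93.4 and 89.3% in the CON libraries. The MV group lay lowest, the MV_PEEP group between and the CON group highest, with no library out of place. Taken singly, CASQ1 and CASQ2 each overlapped in FPKM between the ventilated groups. How often the shares of other gene pairs lack overlap was not tested. The mean share was 70.8 ± 4.76% in the MV group, against 90.3 ± 2.77% in the CON group, a difference of -19.4 percentage points. It was 84.4 ± 2.15% in the MV_PEEP group, a difference of 13.6 points from the MV group and of -5.82 points from the CON group (SD, n = 3). Each of these 3 differences had an exact 2-sided permutation p of 0.1, the smallest that 3 against 3 libraries allow, and an adjusted p of 0.375. CASQ2 shares 186 bases with an opposite-strand gene that the table also describes as calsequestrin-2. The sum of both calsequestrins leaves that gene out, and its part in the share was not tested.

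**Figure D3:**
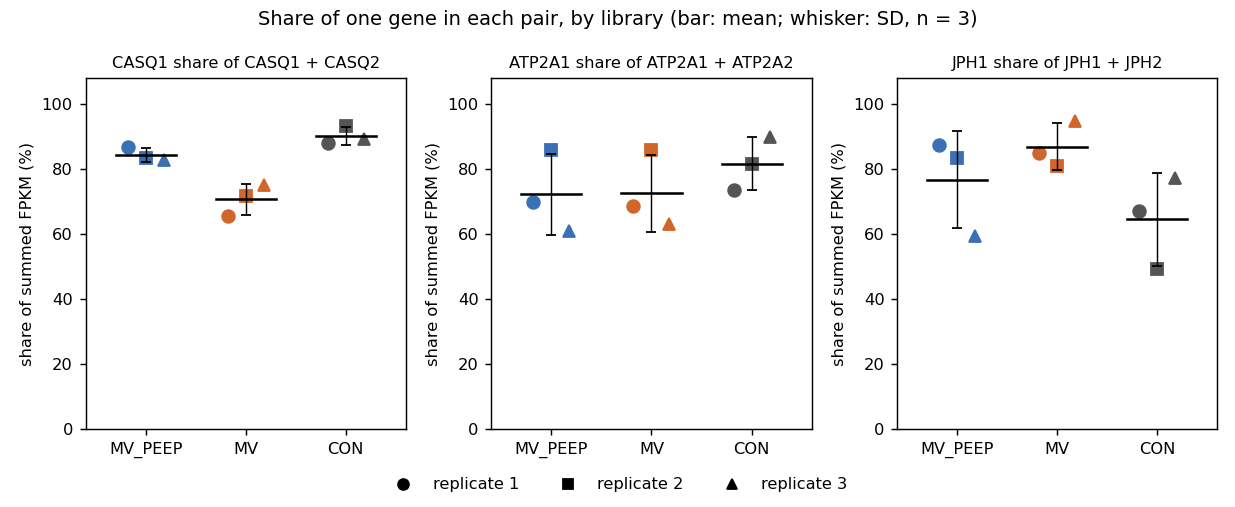
Share of the first gene in the summed FPKM of each pair (vertical axis, %), by group, with a point per library, a bar at the mean and a whisker for the SD over 3 libraries. The CASQ1 share is 83.0 to 86.9% in the MV_PEEP group, 65.7 to 75.1% in the MV group and 88.1 to 93.4% in the CON group, while the ATP2A1 shares overlap between all groups.

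The SERCA pumps were not separated from the spread between libraries in any comparison. ATP2A1 (chr6:18725410-18743957, plus strand) encodes SERCA1, the pump of fast fibres, and had 496, 738 and 455 FPKM in the MV_PEEP libraries, 290, 941 and 198 FPKM in the MV libraries, and 551, 1126 and 526 FPKM in the CON libraries. Replicate 2 was the highest library of each group, and MV replicates 1 and 3 were the lowest of all 9 libraries. The log2 fold change was -0.72 in the MV group (-2.05 to 0.60) and -0.63 in the MV_PEEP group (-1.95 to 0.69) against the CON group. Without 1 library that of the MV group ranged from -1.61 to -0.41. The value of -1.61, without MV replicate 2, had an unadjusted p of 0.018.

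ATP2A2 (chr21:6615655-6682847, plus strand) encodes SERCA2, the pump of slow fibres and of the heart. It had 212, 122 and 289 FPKM in the MV_PEEP libraries, 131, 153 and 115 FPKM in the MV libraries, and 198, 251 and 57.9 FPKM in the CON libraries. The CON libraries alone differed 4.34-fold, and their range held every MV library. The log2 fold change of ATP2A2 was -0.42 in the MV group (-1.56 to 0.72) and -0.04 in the MV_PEEP group (-1.18 to 1.10) against the CON group. In FPKM the mean of the MV_PEEP group was above that of the CON group (208 and 169 FPKM). FPKM lacks the TMM scaling of the fit, and without TMM the log2 fold change of the MV_PEEP group was 0.31.

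The share of ATP2A1 in the sum of both pumps was 72.3 ± 12.5% in the MV_PEEP group, 72.7 ± 11.8% in the MV group, against 81.8 ± 8.25% in the CON group (SD, n = 3). The exact permutation p of the share was 0.3 in the MV group and 0.4 in the MV_PEEP group against the CON group, and 0.9 between the ventilated groups (adjusted p 0.75, 0.75 and 0.9). The summed level of both pumps was 771 ± 79.7 FPKM in the MV_PEEP group, 609 ± 423 FPKM in the MV group, against 903 ± 419 FPKM in the CON group, with exact permutation p-values between 0.5 and 0.8.

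PVALB was lower in both ventilated groups. It encodes parvalbumin, the soluble calcium buffer of the cytosol that is abundant in fast fibres. PVALB (chr4:85072698-85087715, plus strand) had 70.0, 305 and 28.6 FPKM in the MV_PEEP libraries, 68.9, 120 and 190 FPKM in the MV libraries, and 485, 656 and 845 FPKM in the CON libraries. All 6 ventilated libraries lay below the CON libraries, and the MV_PEEP libraries differed 10.7-fold among themselves, the widest spread of any of the 10 genes in any group. The fitted level of PVALB was 5.27-fold lower in the MV group (log2 fold change -2.40, SE 0.848, unadjusted p 0.018, adjusted p 0.567 in edgeR) and 5.83-fold lower in the MV_PEEP group (-2.54, SE 0.853, unadjusted p 0.014, adjusted p 0.676). DESeq2 gave adjusted p-values of 0.101 and 0.0778. The unadjusted p of the MV group was 0.062 without MV replicate 1 (log2 fold change -2.05) and 0.056 without MV replicate 2 (-2.29). In the MV_PEEP group the log2 fold change without 1 library ranged from -3.97 (without replicate 2) to -2.01.

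Between the MV_PEEP group and the MV group the 10 genes had log2 fold changes from -0.83 (CASQ2) to 0.54 (JPH2), 6 below and 4 above 0, with a median of -0.17. JPH2 averaged 5.10 ± 1.63 FPKM in the MV_PEEP group and 3.03 ± 1.65 FPKM in the MV group, CASQ1 542 ± 251 and 391 ± 146 FPKM, and PVALB 134 ± 149 and 126 ± 60.5 FPKM (SD, n = 3). None of the 10 genes was without overlap between the ventilated groups in FPKM, against 1.53% of all genes tested that were lower and 4.86% that were higher in the MV_PEEP group. The 95% intervals were wide, from -1.94 to 1.65 for PVALB and from -0.83 to 1.45 for CASQ1. Without MV_PEEP replicate 2, 3 of the 10 genes were lower in every MV_PEEP library than in every MV library, as were 2.84% of all genes tested. This count was also chosen after seeing the data, and it was 0 without any 1 of the other libraries compared. The median over the 10 genes was -0.69 without MV_PEEP replicate 2, 0.28 without MV_PEEP replicate 3 and 0.018 without MV replicate 3, so its sign was not stable.

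The partners of these genes were followed in 5 lists of 69 further genes, of which 66 were in the table and 59 were tested. In the MV group 3 of the 59 were lower and 1 was higher than in the CON group at an unadjusted p under 0.05, against 3.19% and 3.77% of all genes tested. In the MV_PEEP group 3 were lower and 0 higher, against 3.02% and 3.23%. In FPKM, 3 of the 59 were lower without overlap in the MV group and 2 in the MV_PEEP group, against 4.91% and 2.58% of all genes tested. Higher without overlap were 2 and 5, against 10.3% and 14.2%. None had an adjusted p under 0.05. Of 18 partners of the voltage sensor and the triad, none met the unadjusted limit in the MV group, where 11 were below and 7 above 0 with a median log2 fold change of -0.14. STAC3, which is needed for the coupling of the voltage sensor to the release channel, had 493 ± 173 FPKM in the MV_PEEP group, 471 ± 130 FPKM in the MV group, against 493 ± 79.2 FPKM in the CON group (SD, n = 3). CALM3, one of the genes for calmodulin, had 57.4, 48.9 and 97.0 FPKM in the MV_PEEP libraries, 28.2, 33.7 and 50.6 FPKM in the MV libraries, and 68.0, 88.4 and 45.3 FPKM in the CON libraries (log2 fold change of the MV group against the CON group -0.86, unadjusted p 0.054). S100A1, a calcium binding protein that acts on the release channel, was the 1 gene of this list under the limit in the MV_PEEP group (log2 fold change -1.49, unadjusted p 0.034). S100A1 had 257, 225 and 349 FPKM in the MV_PEEP libraries, and 991, 299 and 421 FPKM in the CON libraries. Without CON replicate 1 its log2 fold change was -0.66 (unadjusted p 0.24), and without any 1 MV_PEEP library its p was over 0.05 (0.057 to 0.091).

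The regulators of the store and of the pumps had lower medians than the triad partners. Of 12 tested, 8 were below 0 in each ventilated group, and the median log2 fold change was -0.68 for the MV group and -0.67 for the MV_PEEP group. ANK1, whose small muscle form ties the reticulum to the myofibril, had 4.18, 5.25 and 4.87 FPKM in the MV_PEEP libraries, 1.58, 4.44 and 3.43 FPKM in the MV libraries, and 10.4, 15.5 and 3.84 FPKM in the CON libraries. CON replicate 3 lay within the ventilated range. Its log2 fold change was -1.67 in the MV group (unadjusted p 0.0099) and -1.35 in the MV_PEEP group (unadjusted p 0.028), and the second of these was over 0.05 without CON replicate 1 or 2 or MV_PEEP replicate 1 or 3 (0.055 to 0.098). TMEM38A, a cation channel of the reticulum that balances charge during release, had 97.3, 69.6 and 71.1 FPKM in the MV_PEEP libraries, 39.6, 60.5 and 67.9 FPKM in the MV libraries, and 150, 165 and 54.4 FPKM in the CON libraries (log2 fold change of the MV group -1.18, unadjusted p 0.037). As for ANK1, CON replicate 3 was within the ventilated range, and the TMEM38A p was between 0.08 and 0.13 without CON replicate 1 or 2 or MV replicate 1 or 2.

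Several regulators with a known place beside the 10 genes did not meet the unadjusted limit. SLN, the small membrane protein that inhibits SERCA, was the most abundant of them, with 5519, 6381 and 2137 FPKM in the MV_PEEP libraries, 4210, 7295 and 5009 FPKM in the MV libraries, and 7552, 6425 and 6524 FPKM in the CON libraries (log2 fold change -0.80 in the MV_PEEP group and -0.42 in the MV group). The MV_PEEP libraries were all below the CON libraries for SLN. PLN, a SERCA inhibitor of the heart and of slow fibres, stood at 22.6 ± 17.5, 17.6 ± 12.3 and 13.9 ± 4.22 FPKM in the MV_PEEP, MV and CON groups (SD, n = 3). RYR3, a release channel that the diaphragm expresses beside RYR1, had 5.22, 9.94 and 5.82 FPKM in the MV_PEEP libraries, 7.91, 6.79 and 3.88 FPKM in the MV libraries, and 10.4, 10.3 and 8.16 FPKM in the CON libraries. The MV libraries were all below the CON libraries for RYR3, with a log2 fold change of -0.79 (unadjusted p 0.063). RYR2, the release channel of the heart, reached at most 0.160 FPKM in any library. SRL, which encodes the luminal calcium binding protein sarcalumenin, had a log2 fold change of -1.35 in the MV group (unadjusted p 0.053). Without 1 library the log2 fold change of SRL ranged from -2.12 (without MV replicate 2) to -0.89.

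Among the calcium sensing enzymes, MYLK2, the myosin light chain kinase of skeletal muscle, was lower in every MV library (94.4, 111 and 70.1 FPKM) than in every CON library (167, 193 and 126 FPKM), with a log2 fold change of -0.93 and an unadjusted p of 0.032. Without 1 library, the p of MYLK2 was between 0.058 and 0.086 in 4 of 6 cases. RCAN2, an inhibitor of calcineurin, had 17.7, 15.6 and 6.92 FPKM in the MV_PEEP libraries, 14.7, 16.2 and 14.1 FPKM in the MV libraries, and 36.1, 26.3 and 21.6 FPKM in the CON libraries. All ventilated libraries were below the CON libraries, with a log2 fold change of RCAN2 of -1.33 in the MV_PEEP group (unadjusted p 0.021) and -1.02 in the MV group (unadjusted p 0.061). Without CON replicate 1 the p of RCAN2 in the MV_PEEP group was 0.092. Of 11 enzymes tested, 7 were below and 4 above 0 in each ventilated group. None of 10 transporters of the plasma membrane and the mitochondria met the limit in either group, and their median log2 fold change was -0.06 in the MV group and 0.07 in the MV_PEEP group.

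**Figure D4:**
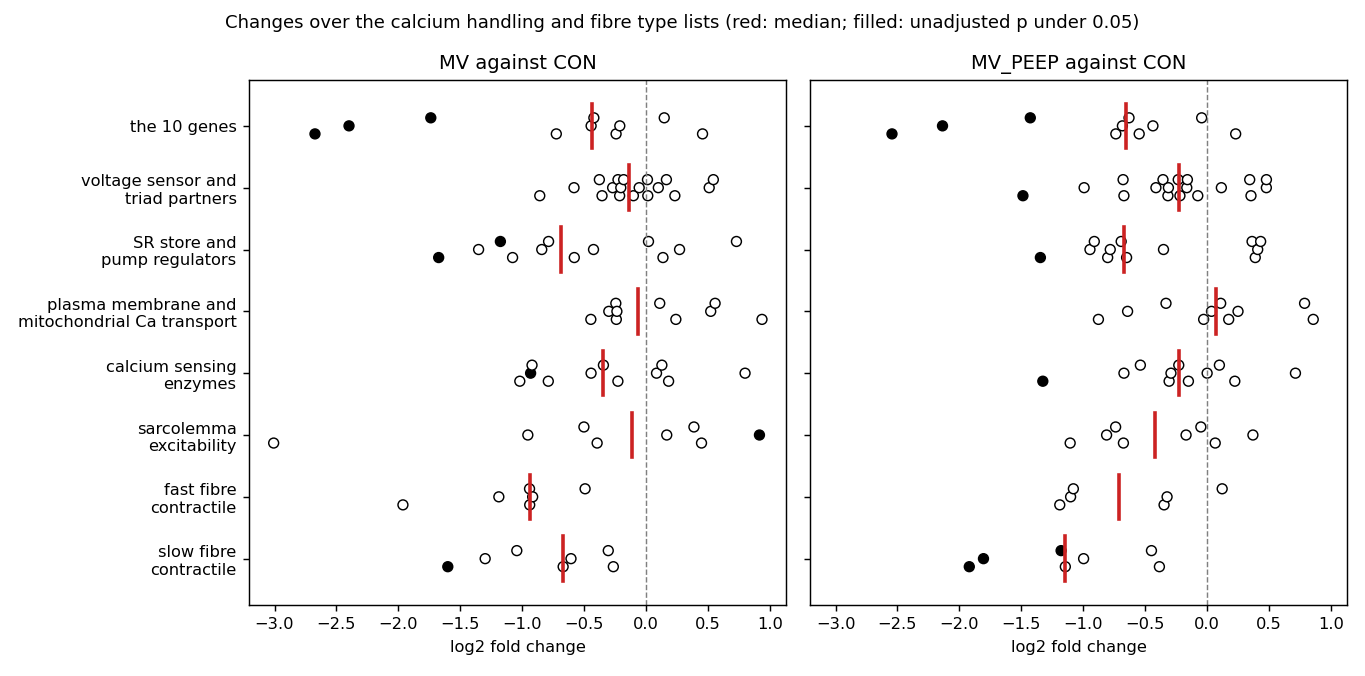
Fitted log2 fold change (horizontal axis) against the CON group of each gene tested, in the MV group and the MV_PEEP group, by list (SR, sarcoplasmic reticulum), with the median as a red bar and filled points at an unadjusted p under 0.05. The medians of the 10 genes are -0.43 and -0.66, and both contractile lists have medians below 0 in both comparisons.

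Since 5 of the 10 genes differ between fibre types, the contractile genes of both types were set beside them. Of 6 fast fibre genes tested, 6 were below 0 in the MV group and 5 in the MV_PEEP group against the CON group, with medians of -0.94 and -0.71, and none met the unadjusted limit. ACTN3, the alpha-actinin of fast fibres, had 583, 849 and 297 FPKM in the MV_PEEP libraries, 504, 470 and 552 FPKM in the MV libraries, and 847, 1108 and 1355 FPKM in the CON libraries (unadjusted p 0.051 in the MV_PEEP group and 0.052 in the MV group). Of 7 slow fibre genes tested, all 7 were below 0 in each group, with medians of -1.14 in the MV_PEEP group and -0.67 in the MV group. The unadjusted limit was met by 3 of these 7 in the MV_PEEP group (MYL2, MYL3 and MYOZ2) and by 1 in the MV group (MYL3). Among the 8 skeletal muscle markers it was met downward by 2 in the MV_PEEP group and by 0 in the MV group. The shares of all genes tested that met it downward were 3.02% and 3.19%. MYL3, a slow light chain of myosin, had 3092, 1971 and 1666 FPKM in the MV_PEEP libraries, 2016, 2193 and 2576 FPKM in the MV libraries, and 9717, 4703 and 4463 FPKM in the CON libraries. MYL2, the other slow light chain, had 7381, 7256 and 4272 FPKM in the MV_PEEP libraries, 9069, 6101 and 10120 FPKM in the MV libraries, and 26522, 12470 and 18194 FPKM in the CON libraries. Both light chains were lower in every ventilated library than in every CON library. Of all genes tested, 4.91% were lower without overlap in the MV group and 2.58% in the MV_PEEP group. The unadjusted p-values in the MV_PEEP group were 0.013 for MYL3 and 0.012 for MYL2 (over 0.05 for both without CON replicate 1). In the MV group they were 0.022 for MYL3 (0.068 to 0.11 without CON replicate 1 or MV replicate 1 or 2) and 0.062 for MYL2. For the MV_PEEP group against the CON group, DESeq2 gave MYL2 an adjusted p of 0.0369 and did not call MYL3. The summed level of the fast list was 6363 to 27826 FPKM in the MV_PEEP group, 16817 to 21339 FPKM in the MV group, against 20698 to 38629 FPKM in the CON group, and that of the slow list 15437 to 28757, 21846 to 31788 and 33805 to 69155 FPKM. The part of fibre composition in the values of CASQ1 and PVALB was not tested.

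Markers of other cell types differed with the groups and with single libraries. The summed level of 8 neutrophil and macrophage markers was 185 to 291 FPKM in MV_PEEP libraries and 42.4 to 1041 FPKM in MV libraries. It was 6.78 to 26.4 FPKM in the CON group, so that every ventilated library was above every CON library. The highest levels in the MV group were 443, 288 and 293 FPKM for S100A8, S100A9 and S100A12, against at most 18.5 FPKM for the other markers. In each ventilated group 4 of the 8 had a higher level with an unadjusted p under 0.05. The same limit was met upward by 3.77% (MV) and 3.23% (MV_PEEP) of all genes tested. Against the CON group, 6 of the 8 were above 0 in the MV group and 7 in the MV_PEEP group. The log2 fold change of PTPRC was -0.25 and -1.10, and that of CSF1R -0.89 and 0.64, in these groups. MV replicate 1, with the highest marker sum at 1041 FPKM, was the lowest of its group for 3 of the 10 genes in FPKM and for 6 in counts scaled as in the fit. MV replicate 3, with the lowest marker sum of that group at 42.4 FPKM, was the lowest for 7 in FPKM and for 4 in scaled counts. The summed level of 3 adipocyte markers was 7502 FPKM in MV_PEEP replicate 3 and 205 to 712 FPKM in the other 8 libraries. Whether these sums follow the numbers of such cells, and the part of these cells in the results on the 10 genes, was not tested. Without MV_PEEP replicate 3, the log2 fold change of CASQ1 in the MV_PEEP group against the CON group was -1.02.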

How the data were processed

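Per the labels and the authors' notes, poly(A) RNA was made into dUTP-marked libraries, reads were trimmed with cutadapt 1.9 and aligned to OryCun 2.0 by HISAT2 2.0.4, and expression is credited to StringTie 1.3.4d. The deposited counts are whole numbers per gene, and the program behind them is not given in the sources used here. The deposited FPKM values were scaled by the authors to transcript length and library size, with 0.0001 in place of 0. Of the counts between 1 and 12, 54.3% were multiples of 4, so counts divided by 4 were tried as an alternative.

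Genes whose mean FPKM reached 0.5 (12981) were tested on their counts by edgeR 4.0.16 under R 4.3.3 (TMM, 1 mean per group over all 9 libraries, quasi-likelihood test, 6 residual and 4.08 prior degrees of freedom), with p-values adjusted over all genes tested. The 5 ratios per library were compared by exact 2-sided permutation tests, 15 in all. DESeq2 1.42.0, limma 3.58.1 on log2(FPKM + 1) and log2(FPKM + 0.1), other scalings and filters, the 6 libraries compared alone, a block by replicate number and the omission of each library were alternatives. The fit was also run on simulated data, and the outcome is not given here. The 10 genes and the lists were chosen with earlier results of these data known. All 10 genes are described, and of each list up to 3 with the smallest p in a comparison, plus RYR2, RYR3, SLN, PLN and STAC3. A result that meets this rule is not reported here. Markers of other cell types are given as sums, and single markers named in the report were picked after their values were seen. MYH2 and MYH7 were not matched to a row. TNNT1 was left out because the reference gene table (assembly mOryCun1.1, used for names only, with 20171 IDs matched) names its ID TNNT3.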

Additional observations from a re-analysis of the deposited data

How the results depend on the processing

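JPH2, CASQ1 and PVALB kept a negative log2 fold change against the CON group under every alternative run. DESeq2 called 154, 98 and 15 genes past an adjusted p of 0.05 for the MV group against the CON group, the MV_PEEP group against the CON group and the MV_PEEP group against the MV group, and 2, 1 and 0 of the 10 genes, where edgeR called 0. At an unadjusted p under 0.05 edgeR had 904, 811 and 457 genes. limma on log2(FPKM + 1) called 2, 2 and 1 genes and limma on log2(FPKM + 0.1) called 2, 2 and 0, none of them among the 10. The cause of these differences between tools was not tested.

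Scaling to library totals without TMM moved the median log2 fold change of all genes to 0.13, 0.42 and 0.25 in the 3 comparisons, and relative to these medians JPH2, CASQ1 and PVALB stood at -2.72, -1.77 and -2.51 in the MV group and -2.25, -1.59 and -2.71 in the MV_PEEP group against the CON group. Without TMM ATP2A2 was at 0.31, CALM3 at 0.019 and STAC3 at 0.0078 in the MV_PEEP group against the CON group, and PVALB at 0.10 in the MV_PEEP group against the MV group, each with the opposite sign. With limma ATP2A2 was at 0.45 (pseudocount 1) and 0.46 (pseudocount 0.1) in the MV_PEEP group against the CON group.

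Libraries of one number did not resemble each other (r from -0.28 to 0.36 between deviations from the group means, 2 of 9 libraries closest to their own number), so numbers were not read as pairs. With the replicate number as a block edgeR called 0 genes, 3 of the 10 genes were lower at an unadjusted p under 0.05 in each comparison with the CON group, ATP2A2 was at 0.040 in the MV_PEEP group against the CON group, and no adjusted call changed.

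Without 1 library, edgeR called 0 to 1 genes in each comparison of the MV_PEEP group, and the count of the 10 genes lower at an unadjusted p under 0.05 was 2 to 3 (MV against CON), 3 to 4 (MV_PEEP against CON) and 0 to 1 (MV_PEEP against MV, 1 without MV_PEEP replicate 2). The count lower without overlap, an alternative chosen after seeing the data, was 3 to 4, 3 to 8 and 0 to 3, with 8 and 3 reached without MV_PEEP replicate 2, and over all genes tested the share was 6.37 to 11.0%, 4.57 to 7.73% and 2.84 to 5.56%. Against the CON group, log2 fold changes that crossed 0 ranged from -0.10 to 0.35 (CASQ2, MV), -0.85 to 0.57 (S100A1, MV), -0.44 to 0.51 (PLN, MV), -0.46 to 0.16 (STAC3, MV), -0.43 to 0.26 (ATP2A2, MV_PEEP), -0.46 to 0.70 (TRDN, MV_PEEP), -0.58 to 0.74 (PLN, MV_PEEP) and -0.63 to 0.14 (STAC3, MV_PEEP). The median over the 10 genes in the MV_PEEP group against the MV group ranged from -0.69 to 0.28, and was 0.030 without TMM. In the MV_PEEP group against the MV group single genes ranged from -0.71 to 0.24 (JPH1), -0.083 to 0.71 (CASQ1), -0.92 to 0.24 (TRDN), -0.67 to 0.17 (CACNA1S), -0.21 to 0.98 (ATP2A1) and -1.57 to 0.48 (PVALB). The RYR1 to CACNA1S difference ranged from -0.028 to 0.12 (MV against CON) and -0.15 to 0.038 (MV_PEEP against CON), the summed SERCA difference from -292 to 104 FPKM (MV_PEEP against CON) and the ATP2A1 share difference from -7.12 to 6.27 points (MV_PEEP against MV). The CASQ1 share kept its direction in all 3 comparisons, between -21.6 and -16.9, -7.05 and -4.26, and 11.1 and 15.8 points. With 3 libraries a group and a common biological coefficient of variation of 0.552, the width of the intervals limits every statement on a single gene.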
